A study of Mus musculus with 27 samples.

Results

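DNA replication licensing and S phase genes were followed in the colon transcriptomes of 5 groups of mice. They were taken as the rows of the deposited gene table whose gene name is in a list of 40 symbols, which matched 40 of its 39971 genes, 1 row each. All 40 passed the filter on low values, which keeps a gene whose FPKM (fragments per kilobase of transcript, scaled to depth) reaches 1 or more in 5 or more of the 27 libraries and which 15080 genes passed. By role, 10 members license origins, 6 activate the helicase, 6 form or load the sliding clamp, 6 are polymerase or primase subunits, 4 mature and protect new strands, 4 control entry into S phase, and 4 serve chromatin or the fork checkpoint.

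All mice were BALB/c with the genotype WT. The NC group (n = 6 libraries) was not induced and received normal saline i.p. and i.g., and its tissue was colon. In the other 4 groups the tissue was a tumor-bearing colon segment, after azoxymethane (AOM), a carcinogen, and dextran sulfate sodium (DSS), an irritant of the colon, had given neoplasia. The CAC group (n = 5 libraries) then received normal saline by both routes. The CAC_F group (n = 5) received FOLFOX, the chemotherapy of folinic acid, fluorouracil and oxaliplatin, i.p. with saline i.g., the CAC_FP group (n = 5) received FOLFOX with a complex of probiotics i.g., and the CAC_FPL group (n = 6) received in addition loperamide, an opioid that slows the gut. Samples were collected 1 week into chemotherapy, and the labels give no age, sex or dose. AOM/DSS and the tumor-bearing tissue source coincide, so their parts in any difference from NC cannot be told apart.

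Before S phase the origin recognition complex, Cdc6 and Cdt1 load the MCM helicase onto DNA, which licenses an origin to fire once per cycle. Cyclin E and the E2F factors bring the cell into S phase, when Cdc45, GINS and Mcm10 turn the loaded helicase on and polymerases, the PCNA clamp and its loader, flap endonuclease and ligase copy the strands. In the colon such genes are expressed mainly in dividing crypt cells. Of the drugs given, fluorouracil blocks thymidylate synthesis and oxaliplatin makes DNA adducts.

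Total counts were 56687812 to 79709845 per library. In bulk tissue, fewer dividing cells and less RNA per dividing cell cannot be told apart. The libraries carried 1 batch label. They nevertheless fell into 2 sets by their haemoglobin transcripts. Hba-a1, which encodes a globin of red cells, was at 7.80 to 20.1 CPM (counts scaled to the library's effective size) in NC, 8.14 to 75.4 in CAC and 51.7, 15.9 and 9.65 CPM in CAC_FPL replicates 1, 2 and 3. It was at 0 to 0.0840 CPM in CAC_F, 0 to 0.109 in CAC_FP and 0, 0.361 and 1.17 in CAC_FPL replicates 4, 5 and 6. Hbb-bs, the partner globin, was at 0 counts in all 5 CAC_F libraries. The 9 erythroid markers summed to 232 to 317 CPM (NC), 234 to 335 CPM (CAC), 147 to 294 CPM (CAC_F), 154 to 215 CPM (CAC_FP) and 135 to 375 CPM (CAC_FPL). This sum includes Tfrc, which dividing cells also express and which was at about the same mean in CAC and CAC_F (210.3 ± 66.7 and 210.1 ± 54.4 CPM). The libraries with haemoglobin and those nearly without it are thus NC, CAC and CAC_FPL 1 to 3 on one side and CAC_F, CAC_FP and CAC_FPL 4 to 6 on the other. The level of the 40 genes followed the same line, as the next values show, and the part of whatever separates these libraries in the results was not tested. For CAC_F and CAC_FP against CAC it cannot be told apart from FOLFOX.

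Summed over the 40 genes, the level in CPM was 1268, 1448, 1076, 879 and 966 in the 5 CAC libraries and 1934, 1799, 2312, 1952 and 2454 in the 5 CAC_F libraries. NC libraries lay at 792 to 1425, so NC and CAC overlapped over nearly their whole range and CAC_F lay above every library of both. CAC_FP libraries stood at 1441, 2189, 2097, 1751 and 1670 CPM, the lowest of them just under the highest CAC library. In CAC_FPL the sums were 1320, 1313, 945, 1739, 2198 and 1943 CPM for replicates 1 to 6, of which 1 to 3 fell within the range of CAC and 4 to 6 above it. Abundant genes weigh more in such a sum, so the members were also counted singly. In CAC_F libraries 30, 33, 38, 34 and 39 of the 40 members exceeded the highest CAC library, where 29.4%, 30.0%, 26.4%, 24.5% and 26.8% of all genes tested did. In CAC_FP 21, 38, 39, 34 and 30 did, where 22.3%, 25.1%, 29.2%, 17.8% and 19.9% of all genes tested did. In CAC_FPL the counts were 10, 6 and 0 for replicates 1 to 3 and 34, 37 and 38 for replicates 4 to 6, where 14.7%, 13.7%, 21.7%, 21.3%, 23.6% and 25.3% of all genes tested exceeded the highest CAC library.

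**Figure D1:**
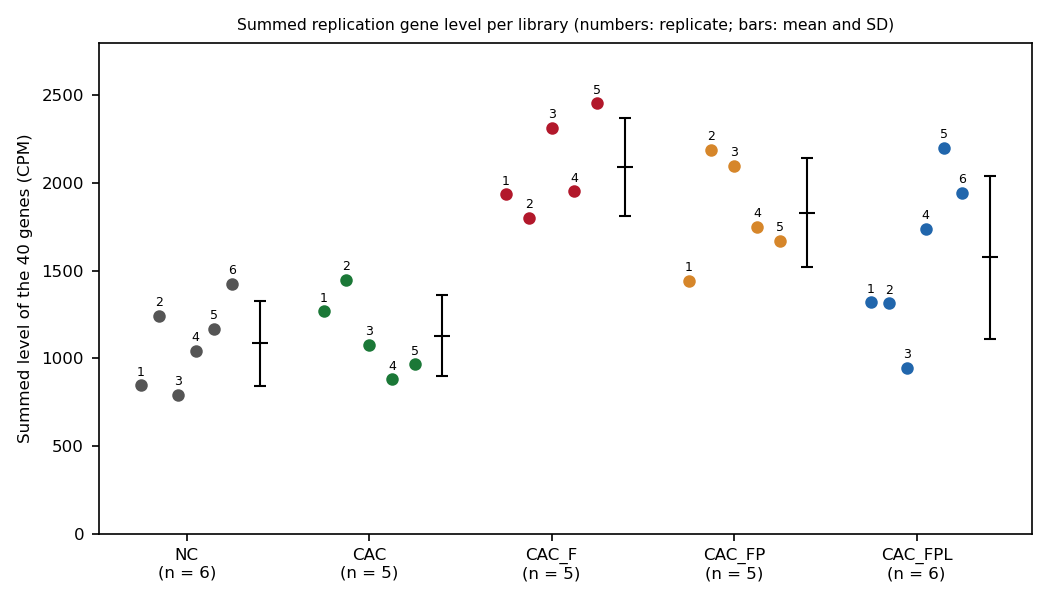
Summed level of the 40 replication genes in CPM (y axis, from 0) for each library, by group (x axis); points are libraries numbered by replicate and bars give the mean and SD of each group. All 5 CAC_F libraries (1799 to 2454 CPM) lie above all NC and CAC libraries, and CAC_FPL replicates 1 to 3 lie below replicates 4 to 6.

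The effect of FOLFOX is asked by CAC_F against CAC. Of the 40 members 33 rose and 0 fell at an adjusted p below 0.05 (quasi-likelihood test of edgeR, adjusted by Benjamini-Hochberg over 15080 genes), where 19.0% of all genes tested rose and 20.2% fell. The median log2 fold change was 1.00 over the members and -0.03 over all genes tested. In 29 members every CAC_F library lay above every CAC library, which held for 10.9% of all genes tested. The largest changes were in Ccne1, Clspn, Chaf1b, Mcm3 and Orc1, and Rfc2 alone had a negative log2 fold change. With the mean of 14 smooth muscle markers as a covariate the number called was 19 and the median log2 fold change of the 40 members was 0.70, with 0.32 to 1.52 in the 33 called without it. The 14 members no longer called were Mcm6, Cdc45, Gins1, Rfc1, Rfc3, Pola1, Pola2, Fen1, Lig1, Rpa1, Rpa2, Ccne2, E2f2 and Uhrf1, and Pold1, not called in either fit, was then at -0.06. How many of all genes tested were called with this covariate is not given here, so the loss is not read as particular to the members.

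The question whether neoplasia itself differed is put by CAC against NC, in which 0 of 40 members were called in either direction, beside 0.0% of all genes higher and 0.00663% lower. At an unadjusted p below 0.05 edgeR found 1 member and 1164 of all genes tested, and DESeq2 called 0 members. The median log2 fold change of the members was 0.07. The smallest unadjusted p belonged to Pola1, the catalytic subunit of polymerase alpha, which was at 10.4, 14.3 and 16.4 CPM in NC (lowest, median, highest) and 19.1, 23.9, 19.9, 13.4 and 15.3 CPM in CAC. Its log2 fold change was 0.39 ± 0.16 (SE; edgeR adjusted p = 0.587). Next came Ccne1 at -0.37 ± 0.26 and Gins1 at 0.42 ± 0.30. Against NC the CAC_F libraries had 36 members higher and 0 lower by edgeR, where 22.6% of all genes were higher and 23.7% lower, and the median log2 fold change was 1.03. All 33 members called against CAC were among these 36, and Gins4, Prim1 and Rfc4 were called against NC alone. The 2 comparisons share the CAC_F libraries.

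**Figure D2:**
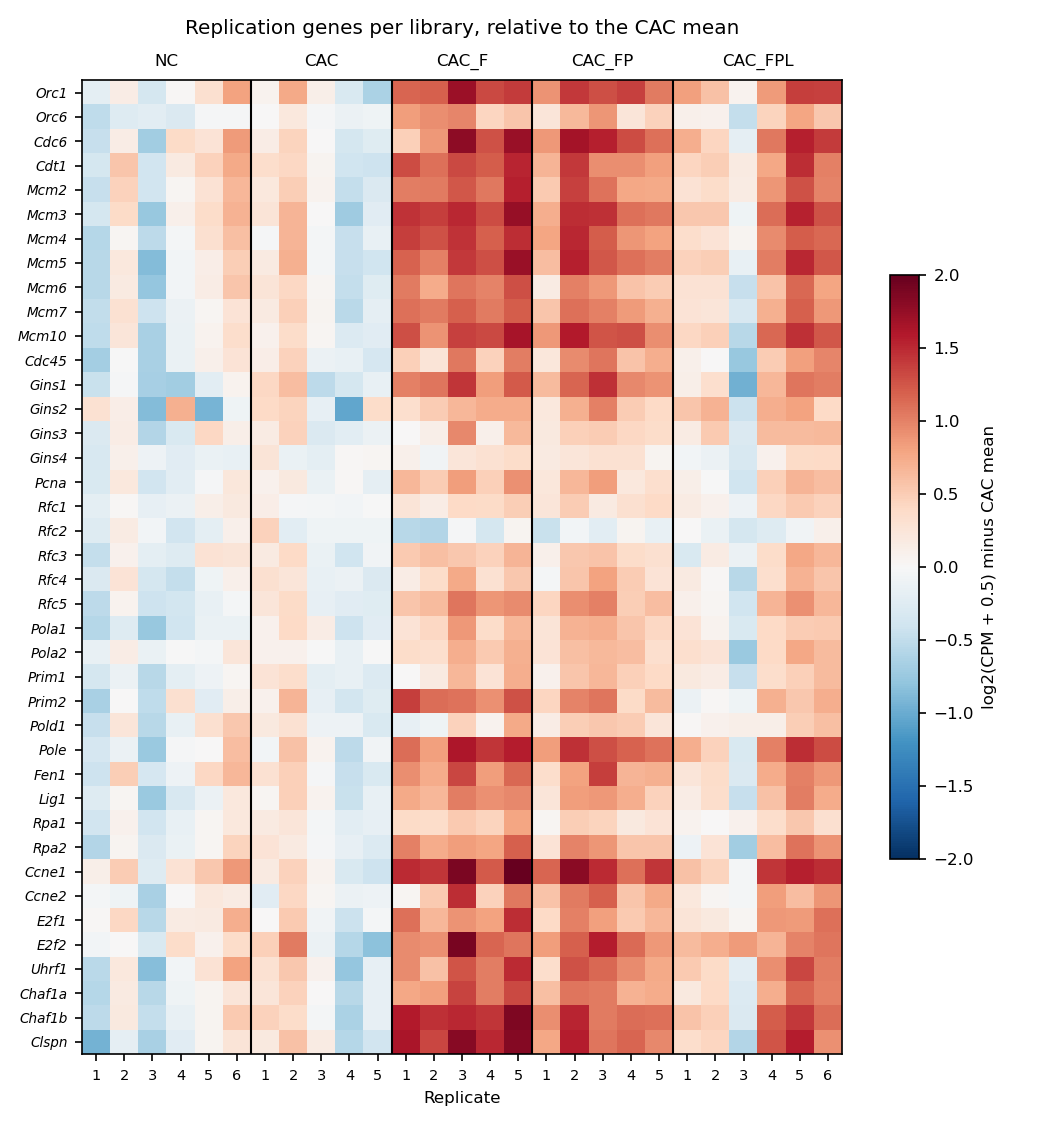
Level of each of the 40 genes (rows, ordered by role) in each library (columns, by group and replicate) as log2(CPM + 0.5) minus the mean of the 5 CAC libraries; red is higher and blue lower than that mean. CAC_F, CAC_FP and CAC_FPL replicates 4 to 6 are red in most rows, while Rfc2 is blue and Gins4 and Pold1 show little colour in most CAC_F libraries, and CAC_FPL replicate 3 is below the CAC mean in most rows.

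All 10 licensing genes rose in CAC_F, by log2 fold changes of 0.78 for Orc6 to 1.42 for Mcm3, and none of their CAC_F libraries overlapped with CAC. Mcm4, a helicase subunit, was at 36.7, 59.7, 36.0, 26.8 and 33.7 CPM in the 5 CAC libraries and at 97.6, 90.8, 103, 86.1 and 105 CPM in the 5 CAC_F libraries. The lowest, median and highest NC library had 24.9, 37.3 and 56.7 CPM, about the range of CAC. Every CAC_F library therefore lay well above both, a log2 fold change over CAC of 1.32 ± 0.25 (edgeR adjusted p = 0.000343). Cdt1, the loader that places MCM on DNA and is destroyed once S phase starts, was at 26.7, 28.1, 21.8, 15.7 and 15.5 CPM in CAC and 52.4, 45.3, 53.1, 49.3 and 60.8 CPM in CAC_F. Its NC libraries had 16.0, 26.4 and 35.8 CPM as lowest, median and highest, and the log2 fold change of CAC_F over CAC was 1.27 ± 0.24 (edgeR adjusted p = 0.000395). The other MCM subunits followed, with 1.17 ± 0.24 for Mcm2, 1.42 ± 0.29 for Mcm3, 1.29 ± 0.29 for Mcm5, 1.01 ± 0.25 for Mcm6 and 1.09 ± 0.22 for Mcm7. So did Orc1, which recruits Cdc6 to origins, at 1.36 ± 0.27, and Cdc6, the ATPase that brings in MCM, at 1.33 ± 0.32. By the positions deposited with the table, which name no build, Mcm4 (ENSMUSG00000022673) spans chromosome 16 from 15441761 to 15455264 and Cdt1 (ENSMUSG00000006585) spans chromosome 8 from 123294754 to 123299867.

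Because E2F sites are a known feature of such promoters, the upstream sequences of 4 licensing genes that rose together and of Gins3, which was not called, are shown. They are the 170 bases before the annotated start, 5′ to 3′ on the gene's strand, from RefSeq on GRCm38.p6, in lower case with each E2F-type octamer in capitals. The octamers searched were TTTCCCGC, TTTCGCGC, TTTGCCGC and TTTGGCGC on both strands, and overlapping matches run together. The windows are chr1:128359706-128359875 (minus strand) for Mcm6, chr4:108579284-108579453 (plus) for Orc1, chr8:75109339-75109508 (plus) for Mcm5, chr11:98907981-98908150 (plus) for Cdc6 and chr8:95633389-95633558 (plus) for Gins3.
Mcm6: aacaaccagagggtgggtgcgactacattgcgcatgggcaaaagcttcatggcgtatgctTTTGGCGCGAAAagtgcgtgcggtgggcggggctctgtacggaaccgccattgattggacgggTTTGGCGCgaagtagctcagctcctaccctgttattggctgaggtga
Orc1: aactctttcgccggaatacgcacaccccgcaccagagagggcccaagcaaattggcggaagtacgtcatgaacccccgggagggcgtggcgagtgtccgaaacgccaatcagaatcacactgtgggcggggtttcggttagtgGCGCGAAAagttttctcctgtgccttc
Mcm5: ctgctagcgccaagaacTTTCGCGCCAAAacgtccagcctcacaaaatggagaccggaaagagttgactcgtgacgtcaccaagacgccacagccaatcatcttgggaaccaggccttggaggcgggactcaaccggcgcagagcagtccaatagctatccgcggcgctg
Cdc6: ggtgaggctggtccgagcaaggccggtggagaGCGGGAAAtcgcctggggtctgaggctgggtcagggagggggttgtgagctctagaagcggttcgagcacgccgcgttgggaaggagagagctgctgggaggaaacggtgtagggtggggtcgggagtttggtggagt
Gins3: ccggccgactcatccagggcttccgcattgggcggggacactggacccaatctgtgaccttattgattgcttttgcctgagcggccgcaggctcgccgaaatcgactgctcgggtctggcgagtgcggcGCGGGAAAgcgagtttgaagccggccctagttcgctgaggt
Mcm6 had octamers starting 110, 106 and 47 bases before the start and Mcm5 at 153 and 149 bases, and in both the first pair overlaps. Orc1 had 1 at 27 bases, Gins3 had 1 at 41 and Cdc6 had 1 at 138. Mcm6, Orc1, Mcm5 and Cdc6 rose in CAC_F and Gins3 was not called, with the same octamer in Gins3 and Cdc6. Only members with an octamer in this stretch are shown, so its presence in them is no result. Mcm2 and Orc6, licensing genes that rose as well, had 0 octamers in their promoter windows. A match is a description of the letters and not a site of binding.

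The share of genes with the E2F-type octamer was counted in promoter windows of 250 bases before to 50 after the start. Of the 32 members with a window, 15 (46.9%) held it, against 463 of 10305 genes tested (4.49%) and 2.60% of all genes with a window. Among 26 genes of G2 and mitosis, 21 had a window and 1 of them (4.76%) held the octamer. Those genes instead held the CHR element (TTTGAA or TTCGAA), a cell cycle element of late genes, in 17 of 21 cases (81.0%), which 7 of 32 members (21.9%) and 16.8% of genes tested held. A CCAAT box was found in 21 of 32 members (65.6%), 18 of 21 mitosis genes (85.7%) and 42.4% of genes tested. Of the 28 members with a window that rose in CAC_F 13 held the octamer, and of the 4 that were not called 2 did. Mcm4, Ccne2, Gins1, Gins2, Gins4, Pole, Prim2 and Rfc2 had no window in the table used.

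**Figure D3:**
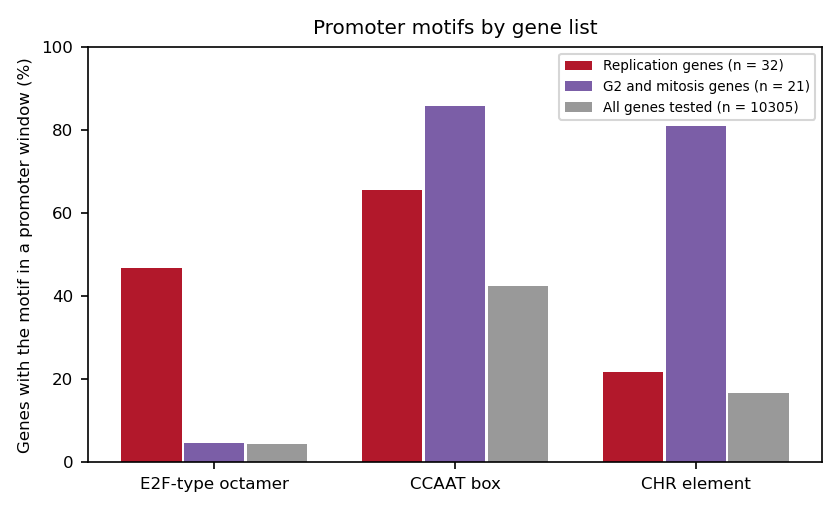
Share of genes (y axis, percent, from 0) with a motif on either strand of a promoter window, for the E2F-type octamer, the CCAAT box and the CHR element (x axis); bars are the 32 replication genes with a window, the 21 G2 and mitosis genes with a window and the 10305 genes tested with a window. The octamer stands out in the replication genes (46.9%) and the CHR element in the mitosis genes (81.0%).

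Of the 6 helicase activators 3 rose in CAC_F. Their median log2 fold change was 0.60, against 1.28 for the licensing genes. Mcm10, which helps the loaded helicase open DNA, was at 19.0, 23.1, 18.3, 14.5 and 15.2 CPM in CAC and 43.9, 33.7, 46.7, 45.2 and 56.6 CPM in CAC_F, with 11.1, 17.5 and 22.7 CPM as lowest, median and highest of NC. All 5 CAC_F libraries were above all CAC libraries, a log2 fold change of 1.33 ± 0.27 (edgeR adjusted p = 0.000727). Cdc45, the helicase cofactor, rose less, by 0.68 ± 0.27 (edgeR adjusted p = 0.0456), and its ranges overlapped. GINS is a complex of 4 subunits that travels with the helicase, and its genes differed in their values. Gins1 was at 5.58, 6.53, 2.70, 3.09 and 3.62 CPM in CAC and 8.72, 9.13, 11.8, 7.69 and 10.2 CPM in CAC_F, with 2.35, 3.16 and 4.32 CPM as lowest, median and highest of NC, and it rose by 1.14 ± 0.31 (edgeR adjusted p = 0.00633). With the smooth muscle covariate Gins1 was at 0.90 and Cdc45 at 0.45, and neither was called (edgeR adjusted p = 0.0623 and 0.282).

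The other 3 GINS genes were not called in CAC_F and their libraries overlapped with CAC. Gins2 was at 35.1, 36.0, 23.4, 12.7 and 34.1 CPM in CAC and 33.5, 37.7, 42.0, 44.7 and 44.3 CPM in CAC_F, a log2 fold change of 0.52 ± 0.29, with CAC replicate 4 below the other CAC libraries. NC libraries of Gins2 spread as widely, with 13.7, 27.0 and 43.4 CPM as lowest, median and highest. Gins3 was at 5.80, 7.19, 4.09, 4.37 and 4.65 CPM in CAC and 5.12, 5.62, 10.5, 5.54 and 8.30 CPM in CAC_F (0.42 ± 0.23), where replicates 3 and 5 alone were above CAC. Gins4 was at 21.6, 16.4, 15.8, 18.5 and 18.6 CPM in CAC and 19.4, 17.2, 21.6, 22.3 and 23.5 CPM in CAC_F (0.19 ± 0.13). The edgeR adjusted p was 0.158, 0.149 and 0.235 in this order. NC had 3.23, 4.85 and 6.94 CPM for Gins3 and 14.4, 16.3 and 19.4 CPM for Gins4 as lowest, median and highest. Whether the 4 genes of the complex differ from each other in their change was not tested.

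Among the clamp genes, Pcna, Rfc1, Rfc3 and Rfc5 rose in CAC_F while Rfc2 and Rfc4 were not called. Pcna, the ring that holds polymerases on DNA, was at 118, 127, 101, 113 and 97.9 CPM in CAC and 177, 159, 199, 154 and 209 CPM in CAC_F, with 85.2, 103 and 130.4 CPM in NC (lowest, median, highest). No CAC_F library reached down to CAC, and the log2 fold change was 0.69 ± 0.17 (edgeR adjusted p = 0.00348). Rfc5, a subunit of the loader that opens the ring, was at 31.1, 34.2, 23.2, 22.2 and 21.9 CPM in CAC and 38.4, 40.9, 55.2, 48.3 and 50.9 CPM in CAC_F, again without overlap (0.82 ± 0.20, edgeR adjusted p = 0.00293). In NC it was at 18.0, 21.8 and 27.5 CPM (lowest, median, highest). Rfc1, the large subunit, rose by 0.35 ± 0.10 and Rfc3 by 0.55 ± 0.19, both without overlap, while Rfc4 was at 0.44 ± 0.21 (edgeR adjusted p = 0.0951).

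Rfc2, another loader subunit, went the other way without passing the test. It was at 75.5, 47.1, 51.3, 51.2 and 51.6 CPM in CAC, 37.0, 36.2, 53.6, 42.6 and 56.5 CPM in CAC_F and 41.6, 49.9 and 61.3 CPM in NC (lowest, median, highest). CAC replicate 1 stood far above its group, and CAC_F replicates 1, 2 and 4 lay below every CAC library while replicates 3 and 5 lay among them. The log2 fold change was -0.29 ± 0.14 (edgeR adjusted p = 0.108), and in CAC_FP and CAC_FPL against CAC it was -0.17 ± 0.14 and -0.13 ± 0.14. By the deposited positions Rfc2 (ENSMUSG00000023104) spans chromosome 5 from 134610220 to 134630659.

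Of the polymerase genes 4 of 6 rose. Pole, the catalytic subunit of the leading strand polymerase, was at 10.8, 17.2, 11.8, 7.67 and 10.7 CPM in CAC and 24.9, 20.2, 35.5, 31.2 and 34.4 CPM in CAC_F, with 6.53, 10.7 and 17.6 CPM in NC (lowest, median, highest). The groups did not overlap, and the log2 fold change was 1.33 ± 0.28 (edgeR adjusted p = 0.000894). Prim2, the large primase subunit, was at 14.2, 21.7, 11.9, 10.2 and 11.2 CPM in CAC and 35.3, 29.4, 29.0, 25.6 and 33.0 CPM in CAC_F, with 8.34, 12.4 and 16.8 CPM in NC. It rose by 1.14 ± 0.23 (edgeR adjusted p = 0.000598). Prim1, the catalytic primase subunit, was at 0.39 ± 0.18 and not called (edgeR adjusted p = 0.0978). Pola1 and Pola2, which make up polymerase alpha with the primase, rose by 0.52 ± 0.17 and 0.54 ± 0.17. Pold1, the catalytic subunit of the lagging strand polymerase, was at 38.1, 40.8, 30.9, 30.9 and 26.8 CPM in CAC and 29.6, 31.2, 46.0, 34.9 and 56.5 CPM in CAC_F, with 22.5, 34.4 and 48.1 CPM in NC. Its CAC_F replicates 1, 2 and 4 lay within the CAC range, and the log2 fold change was 0.24 ± 0.20 (edgeR adjusted p = 0.343). The difference between Pole and Pold1 in their change was not tested.

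All 4 genes of strand maturation rose, and in all 4 the CAC_F and CAC libraries did not overlap. Lig1, the ligase that seals Okazaki fragments, was at 42.2, 57.5, 42.9, 30.1 and 36.8 CPM in CAC and 69.8, 65.3, 83.5, 78.0 and 80.3 CPM in CAC_F, with 24.3, 36.0 and 47.5 CPM in NC (lowest, median, highest). It rose by 0.85 ± 0.21 (edgeR adjusted p = 0.00332). Fen1, the flap endonuclease that trims those fragments, was at 29.8, 33.8, 23.8, 17.4 and 19.5 CPM in CAC and 46.6, 40.4, 61.4, 43.3 and 54.3 CPM in CAC_F, with 17.9, 27.5 and 38.5 CPM in NC, and rose by 0.98 ± 0.25 (edgeR adjusted p = 0.00376). The single strand binding proteins Rpa1 and Rpa2 rose by 0.50 ± 0.13 and 0.92 ± 0.24. With the smooth muscle covariate none of the 4 was called. Their log2 fold changes were then 0.64 for Lig1, 0.65 for Fen1, 0.33 for Rpa1 and 0.73 for Rpa2 (edgeR adjusted p = 0.0539, 0.0743, 0.0893 and 0.0587).

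The 4 genes of S phase entry all rose. Ccne1, the cyclin that drives cells from G1 into S phase, had the largest change of any member. It was at 9.32, 11.4, 8.62, 6.54 and 5.98 CPM in CAC, 24.0, 22.9, 31.4, 19.8 and 35.0 CPM in CAC_F and 6.76, 10.9 and 15.4 CPM in NC (lowest, median, highest). Every CAC_F library was above every CAC and NC library, a log2 fold change over CAC of 1.67 ± 0.28 (edgeR adjusted p = 0.000148). By the deposited positions it (ENSMUSG00000002068) spans chromosome 7 from 37797409 to 37806959. E2f1, a transcription factor that switches on S phase genes, was at 7.82, 11.5, 7.42, 5.62 and 7.54 CPM in CAC and 17.2, 12.6, 14.9, 14.0 and 22.6 CPM in CAC_F, with 5.12, 8.80 and 13.2 CPM in NC. The CAC_F libraries did not overlap with CAC but 1 lay below the highest NC library, and the rise over CAC was 1.03 ± 0.24 (edgeR adjusted p = 0.00204). Ccne2 and E2f2, the close relatives of these genes, rose by 0.81 ± 0.24 and 1.11 ± 0.26, with overlap between the groups. With the smooth muscle covariate E2f2 was at 0.58 and not called (edgeR adjusted p = 0.0581).

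The 4 genes of chromatin and fork protection rose without overlap. Chaf1b, a subunit of the CAF-1 chaperone that deposits histones on new DNA, was at 14.9, 13.9, 10.3, 6.75 and 9.52 CPM in CAC and 33.0, 30.2, 31.3, 29.5 and 40.4 CPM in CAC_F, with 7.25, 10.4 and 15.6 CPM in NC (lowest, median, highest). It rose by 1.57 ± 0.27 (edgeR adjusted p = 0.000158), and its partner Chaf1a by 1.05 ± 0.23. Clspn, the adaptor that lets the fork checkpoint activate Chk1, was at 14.2, 19.0, 13.9, 8.21 and 9.43 CPM in CAC and 39.4, 32.2, 45.1, 36.3 and 45.5 CPM in CAC_F, with 6.20, 10.7 and 15.0 CPM in NC. Its lowest CAC_F library was well above the highest of CAC and NC, a log2 fold change over CAC of 1.62 ± 0.31 (edgeR adjusted p = 0.000404). Uhrf1, which brings maintenance DNA methylation to the fork, rose by 1.04 ± 0.30. By the deposited positions Chaf1b (ENSMUSG00000022945) spans chromosome 16 from 93680789 to 93703003 and Clspn (ENSMUSG00000042489) spans chromosome 4 from 126450728 to 126487696.

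**Figure D4:**
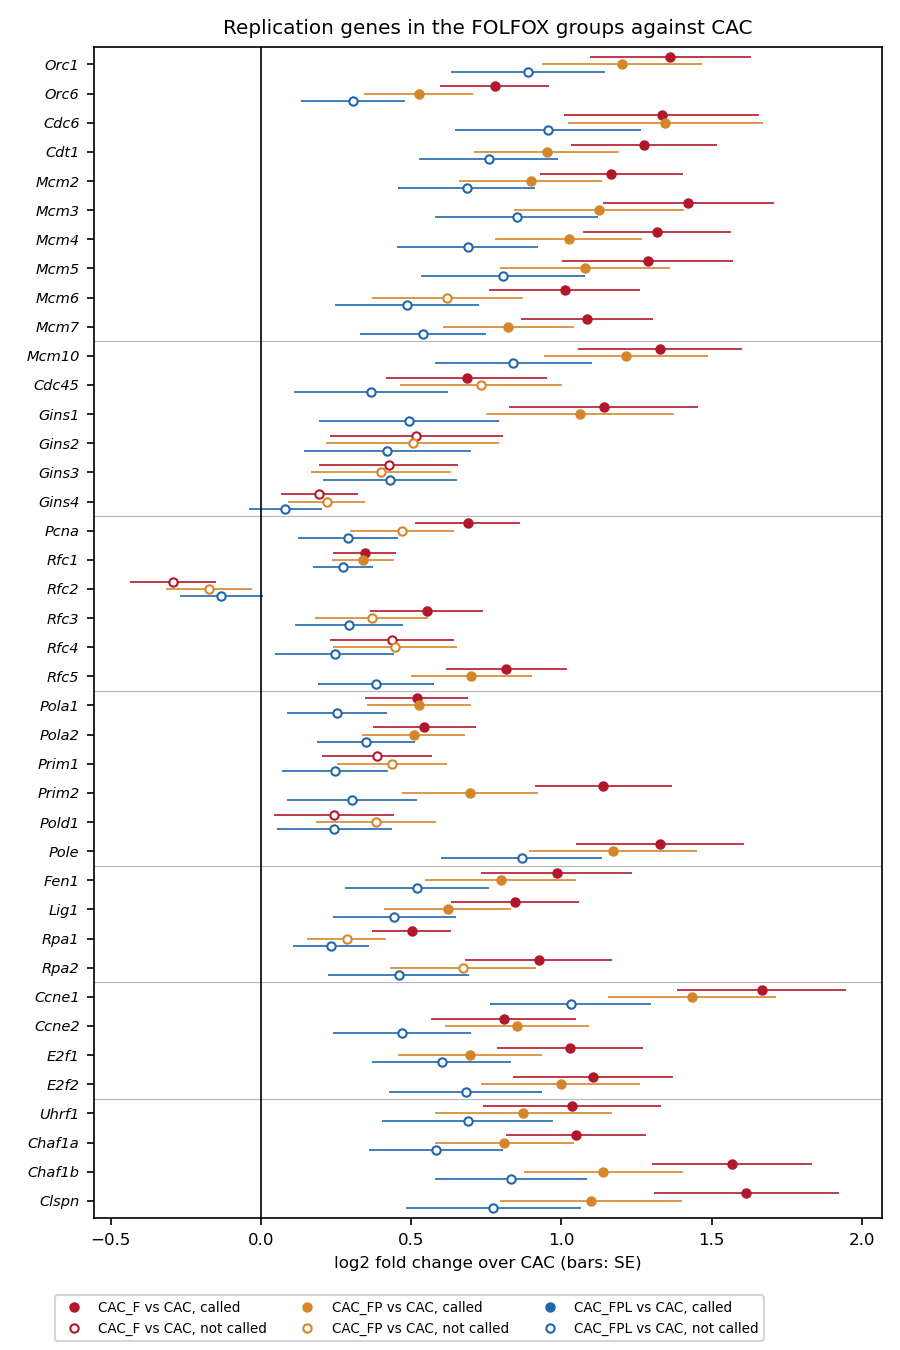
Log2 fold change over CAC (x axis) of each of the 40 genes (y axis, ordered by role with lines between roles) in CAC_F (red), CAC_FP (orange) and CAC_FPL (blue); bars are SE and filled points passed the test. Points lie right of 0 in all rows but Rfc2, and no CAC_FPL point is filled. The 3 comparisons share the CAC libraries.

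With the probiotic complex beside FOLFOX, CAC_FP against CAC had 27 members higher and 0 lower by edgeR, where 9.68% of all genes tested were higher and 8.9% lower. In 21 members no CAC_FP library reached down to CAC, against 5.19% of all genes tested. The median log2 fold change was 0.72 over the members and -0.03 over all genes. All 27 were among the 33 members called in CAC_F, and Cdc45, Mcm6, Pcna, Rfc3, Rpa1 and Rpa2 were called in CAC_F alone. The comparisons share the CAC libraries. Ccne1 was again the largest, at 18.8, 29.7, 23.9, 18.1 and 22.8 CPM in the 5 CAC_FP libraries (1.44 ± 0.28, edgeR adjusted p = 0.00257). Cdc6 followed at 1.35 ± 0.32 and Mcm10 at 1.21 ± 0.27. This count depended on the setting: it was 3 with the smooth muscle covariate, and 14 and 15 without CAC replicates 4 and 5, 17 and 16 without CAC_FP replicates 2 and 3. The number of all genes called under these settings is not given here, so the drop is not read as particular to the members.

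The effect of adding the probiotic complex is asked by CAC_FP against CAC_F, in which 0 members were called in either direction, as were 0.0% of all genes higher and 0.0% lower. At an unadjusted p below 0.05 edgeR found 0 members and 2401 of all genes, and DESeq2 and voom called 0 members. The log2 fold change was negative in 31 of 40 members and in 50.5% of all genes tested, with a median of -0.17 over the members. The 3 smallest unadjusted p were those of Prim2 at -0.44 ± 0.23 (edgeR adjusted p = 0.338), Clspn at -0.52 ± 0.30 and Rpa1 at -0.22 ± 0.13. CAC_FP libraries held 18.1, 26.9, 28.7, 17.4 and 20.9 CPM of Prim2 and 21.5, 37.7, 26.5, 28.3 and 24.5 CPM of Clspn, ranges that overlap with those of CAC_F given above. Rpa1 was at 82.2, 81.2, 91.0, 85.6 and 109 CPM in CAC_F and 64.4, 88.5, 85.9, 72.0 and 76.1 CPM in CAC_FP, likewise overlapping.

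Loperamide was added in CAC_FPL, and the 6 libraries of that group did not stand together. In 36 of 40 members replicates 4, 5 and 6 were all above replicates 1, 2 and 3, which held for 14.1% of all genes tested, and in 0 members were they all below, which held for 14.7%. The labels do not set these libraries apart, so they are described and not tested. Ccne1 was at 12.5, 11.2 and 7.90 CPM in replicates 1 to 3 and 22.7, 24.8 and 23.5 CPM in replicates 4 to 6. For this gene the first 3 were near CAC and the last 3 in the ranges of both CAC_F and CAC_FP. Mcm4 was at 47.8, 45.0 and 38.6 against 72.2, 86.5 and 83.3 CPM, Chaf1b at 16.1, 15.1 and 8.63 against 25.5, 29.4 and 23.8 CPM and Prim2 at 12.3, 13.6 and 12.5 against 22.2, 19.6 and 22.3 CPM. Replicates 4 to 6 were below every CAC_F library for Chaf1b and Prim2, as were replicates 4 and 6 for Mcm4. Replicate 3 was the lowest of the group for Chaf1b and Mcm4, but not for Prim2 or E2f2. E2f2 was at 29.7, 31.6 and 34.6 CPM and 30.6, 38.0 and 40.1 CPM, and Gins2, Rfc2 and Pold1 were the other members whose libraries mixed.

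Against CAC, CAC_FPL had 0 members called in either direction, where 0.882% of all genes tested were higher, 0.524% lower and 0.928% higher without overlap. No member was without overlap, and the median log2 fold change was 0.48. At an unadjusted p below 0.05 edgeR found 21 members and 2837 of all genes. DESeq2 called 9 members and voom with library weights 5. The closest to the threshold was Ccne1 at 1.03 ± 0.27 (edgeR adjusted p = 0.052). The count was 16 without CAC_FPL replicate 3, 11 without CAC replicate 2, 1 each without CAC_FPL replicates 1 and 2, and 23 without CAC replicate 2 and CAC_FPL replicate 3, so it changed with single libraries. How many of all genes were called under these settings and by DESeq2 and voom is not given here.

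Against CAC_FP, which asks for the effect of loperamide, 0 members were called, as were 0.0% of all genes higher and 0.0% lower. At an unadjusted p below 0.05 edgeR found 0 members and 995 of all genes, and DESeq2 and voom called 0 members. The log2 fold change was negative in 38 of 40 members and in 47.2% of all genes tested, with a median of -0.22 over the members. In the summed level, CAC_FPL replicates 1 to 3 (1320, 1313 and 945 CPM) lay below every CAC_FP library (1441 to 2189 CPM). Replicates 4 to 6, with 1739, 2198 and 1943 CPM, lay within that range or just above it. Whatever separates these replicates, which differ in haemoglobin transcripts too, was not tested for its part in this shift. The smallest unadjusted p were those of Gins1 at -0.57 ± 0.30 (edgeR adjusted p = 0.748), Prim2 at -0.39 ± 0.22 and Ccne2 at -0.38 ± 0.23. Gins1 was at 6.65, 9.79, 12.1, 8.46 and 8.04 CPM in CAC_FP and at 4.48, 5.32 and 1.84 and 6.79, 9.10 and 8.87 CPM in CAC_FPL replicates 1 to 3 and 4 to 6. Ccne2 was at 16.5, 23.0, 25.7, 16.4 and 19.0 CPM in CAC_FP and at 12.8, 11.3 and 10.7 and 19.9, 17.1 and 20.8 CPM in the same CAC_FPL libraries. In both genes replicates 4 to 6 lay within the range of CAC_FP.

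Against CAC_F, 1 member was lower in CAC_FPL by edgeR and 0 higher, where 7.14% of all genes tested were higher and 5.05% lower. That member was Prim2, which fell by 0.84 ± 0.22 (edgeR adjusted p = 0.0179), with all 6 CAC_FPL libraries below all 5 CAC_F libraries, as was also so for Chaf1b, which was not called. The share of all genes tested without overlap in this direction was not counted, so this is a description of these genes alone. Prim2 was no longer called in a fit of these 2 groups alone or without CAC_F replicate 1 or CAC_FPL replicate 1 or 2. Unadjusted, 16 members and 4665 of all genes tested (30.9%) had an edgeR p below 0.05, and 37 of 40 log2 fold changes were negative. DESeq2 called 6 lower and voom with library weights 18, and the count was 11 without CAC_FPL replicate 5 and 5 without replicate 6. The number of all genes called under these settings is not given here, so these counts show dependence on the setting alone. By log2 fold change 30 of the 40 members ranked CAC_F above CAC_FP above CAC_FPL, an order in which neighbouring groups had 0 called members. The place of CAC_FPL in this order pools replicates 1 to 3 and 4 to 6, which lay apart in 36 of 40 members. The single steps were negative in 50.5% and 47.2% of all genes tested, and the share of all genes in the joint order was not counted.

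Per length, the genes of the machinery differ widely in level. In CAC, Pcna had the highest FPKM at 42.2 ± 6.91 (SD, n = 5), followed by Mcm7 at 13.0 ± 4.12 and Mcm5 at 12.4 ± 5.25, while Pole at 0.950 ± 0.346, Cdc6 at 1.48 ± 0.446 and Orc1 at 1.61 ± 0.756 were the lowest. Mcm5 and Mcm7 differ by less than their SD. In CAC_F, Pcna was at 71.8 ± 11.5 FPKM, Mcm5 at 31.7 ± 7.10 and Mcm7 at 28.8 ± 2.57. Ccne1, at 2.86 ± 0.916 FPKM in CAC, was at 9.60 ± 2.59 in CAC_F, above Gins2 at 9.47 ± 1.41 by less than the SD of either.

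The other genes of the pathway gave the following counts in CAC_F against CAC by edgeR, where 19.0% of all genes tested rose and 20.2% fell. Of 28 other origin and fork genes 16 rose and 1 fell. Timeless, which stabilizes the fork, rose by 1.39 ± 0.29, Gmnn, the inhibitor of Cdt1, by 0.76 ± 0.17, Atad5, an unloader of PCNA, by 0.84 ± 0.19, and the polymerase delta subunit Pold3 by 0.43 ± 0.10. Rpa3, the small subunit of the single strand binding complex, fell by 0.42 ± 0.17. Of 24 tested genes of G1/S cyclins, kinases, E2F and RB proteins 8 rose and 2 fell. In this list the cyclin Ccnd1 rose by 1.39 ± 0.22 and the repressor E2f7 by 2.01 ± 0.33, and the kinase inhibitor Cdkn1b fell by 0.97 ± 0.15. Cdkn1a, the p53 target p21 that holds cells out of S phase, rose by 1.33 ± 0.23 (edgeR adjusted p = 0.000181), from 78.8, 83.4, 116, 106 and 95.2 CPM in CAC to 341, 238, 173, 222 and 227 CPM in CAC_F without overlap. Its NC libraries were at 172, 155, 139, 203, 92.1 and 136 CPM, a range that holds CAC_F replicate 3. The log2 fold change was -0.64 ± 0.22 in CAC against NC (not called) and 0.69 ± 0.21 in CAC_F against NC (edgeR adjusted p = 0.0115). Genes that promote S phase and this inhibitor of it were thus both higher in CAC_F than in CAC.

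Deoxynucleotide supply had 10 of 12 genes higher and 0 lower in the same comparison, where 19.0% of all genes tested rose and 20.2% fell. Rrm2, the small subunit of ribonucleotide reductase, was at 35.8, 61.1, 29.8, 15.9 and 20.0 CPM in CAC and 189, 187, 183, 171 and 208 CPM in CAC_F, and rose by 2.53 ± 0.44 (edgeR adjusted p = 0.000189), more than any of the 40 members in log2 fold change. Rrm1, its large subunit, rose by 1.10 ± 0.24, Dctd by 1.39 ± 0.28 and Nme1 by 0.95 ± 0.20. Tyms, the thymidylate synthase that fluorouracil inhibits, was at 35.0, 39.3, 25.1, 24.8 and 23.3 CPM in CAC and 34.7, 34.6, 47.6, 36.9 and 47.8 CPM in CAC_F. Its groups overlapped and it rose by 0.45 ± 0.17 (edgeR adjusted p = 0.0394). Of 11 other S phase chromatin genes 8 rose and 0 fell, among them the histone acetyltransferase Hat1 by 0.93 ± 0.15, the remodeler Hells by 1.56 ± 0.30, Rbbp7 by 0.48 ± 0.11 and Nasp by 0.69 ± 0.18. Of 14 checkpoint genes 5 rose and 0 fell, among them Brca1 at 1.46 ± 0.28, Chek1 at 1.02 ± 0.24 and Fancd2 at 1.13 ± 0.28.

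Genes of G2 and mitosis, 26 in number, had 14 higher and 0 lower in CAC_F against CAC with a median log2 fold change of 0.65. Of all genes tested 19.0% rose and 20.2% fell there. In CAC_FP against CAC 1 of the 26 was higher, with a median of 0.54 over the list, where 9.68% of all genes tested were higher. That single call is not read as a result about the list. The cyclin Ccnb1 rose in CAC_F by 1.19 ± 0.29, its kinase Cdk1 by 1.06 ± 0.26, Tpx2 by 0.95 ± 0.27 and Kif20a by 1.02 ± 0.29. Mki67, the proliferation marker, was at 171, 338, 209, 159 and 169 CPM in CAC and 291, 255, 414, 303 and 301 CPM in CAC_F, and rose by 0.58 ± 0.23 (edgeR adjusted p = 0.0467), with CAC replicate 2 above 4 of the CAC_F libraries. In CAC against NC the 2 lists had different values. The mean log2(CPM + 0.5) of the mitosis list was 4.36 to 4.94 in NC and 4.95 to 5.66 in CAC, without overlap, while that of the 40 members was 3.93 to 4.78 and 4.07 to 4.84. No gene of either list was called in that comparison, and the difference between the lists was not tested.

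Markers of other cell types are read against the 19.0% of all genes tested that rose and the 20.2% that fell in CAC_F against CAC. Of 14 smooth muscle markers 11 fell in CAC_F against CAC and 0 rose, with the actin Actg2 at -2.37 ± 0.44, Des at -1.91 ± 0.39, Cnn1 at -1.92 ± 0.41 and Hhip at -1.13 ± 0.26. Their summed level was 3960 to 9337 CPM (NC), 3840 to 16819 CPM (CAC), 1980 to 3406 CPM (CAC_F), 1462 to 4025 CPM (CAC_FP) and 2112 to 6606 CPM (CAC_FPL), and no marker was at 0 in a whole group. Of 10 epithelial markers 2 rose (Krt18 at 0.63 ± 0.17 and Cdh1 at 0.35 ± 0.14) and the transcription factor Cdx1 fell by 0.81 ± 0.22. Their summed level was 6765 to 10812 CPM in CAC and 7229 to 11470 in CAC_F, overlapping, so the labelled colon tissue had its epithelium. With the epithelial mean as a covariate 33 of 40 members were called, and the number of all genes called in that fit is not given here. Of 10 goblet cell markers 6 fell, among them Clca1 at -4.54 ± 0.64, Retnlb at -3.21 ± 0.74, Spink4 at -1.88 ± 0.47 and Agr2 at -1.52 ± 0.39, and their sum was 19167 to 54389 CPM in CAC and 2672 to 22540 in CAC_F. Of 10 colonocyte markers 2 fell, Guca2a at -1.93 ± 0.38 and Cyp2c55 at -4.67 ± 1.09. The counts of the epithelial and colonocyte lists are near the share of all genes called. Of 8 tested crypt stem cell markers Cd44 rose, by 0.58 ± 0.22, and 0 fell, with a sum of 305 to 485 CPM in CAC and 376 to 524 in CAC_F.

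Of 10 macrophage markers 5 rose (Mrc1 by 2.10 ± 0.41, C1qa by 0.99 ± 0.26, C1qc by 0.78 ± 0.22, C1qb by 0.92 ± 0.26 and Cd68 by 0.87 ± 0.26) and Cx3cr1 fell by 0.72 ± 0.28. Their sum was 561 to 1115 CPM in CAC and 1142 to 2184 in CAC_F. Of 5 tested neutrophil markers Ly6g rose by 5.00 ± 1.17 and S100a8 by 2.94 ± 1.14, with mean levels of 665 and 3.80 CPM in CAC_F. The others were not called, with S100a9 at 2.20 ± 1.20, Csf3r at -0.23 ± 0.44 and Retnlg at -0.52 ± 0.37. The list summed to 10.3 to 132 CPM in CAC and 283 to 1070 in CAC_F, and most of its mean in CAC_F was Ly6g. Of 10 T cell markers 7 fell, with Cd8b1 at -1.89 ± 0.48, Cd3g at -1.55 ± 0.40, Cd8a at -1.62 ± 0.45 and Cd3d at -1.34 ± 0.46, and of 9 tested B cell markers Jchain fell by 1.00 ± 0.28. Of the 3 tested erythroid markers Hba-a1 and Hbb-bs fell and Tfrc was not called. The part of these cell types in the change of the replication genes was not tested beyond the 2 covariate fits.

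**Figure D5:**
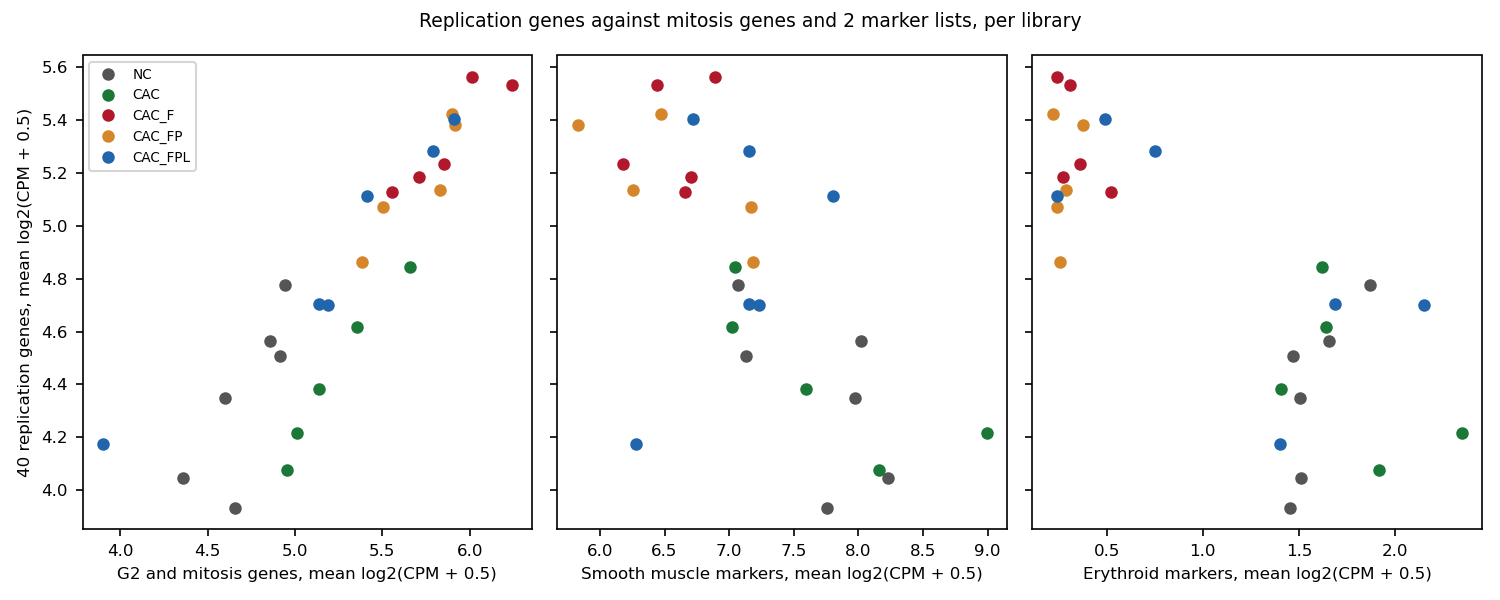
Mean log2(CPM + 0.5) of the 40 replication genes (y axis) against that of 26 G2 and mitosis genes, 14 smooth muscle markers and 9 erythroid markers (x axes), 1 point per library, coloured by group. Replication and mitosis genes rise together over the libraries, with NC points left of CAC points, and in the erythroid panel the libraries fall into 2 clouds, of which the one with low erythroid levels holds CAC_F, CAC_FP and 3 CAC_FPL libraries and has the higher replication gene level.

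In the deposited coordinates 21 members overlap the span of another gene, 11 one of at least 1 CPM, and 7 one with a higher mean CPM than their own, all on the opposite strand. These 7 are Orc6, Cdc45, Gins2, Rfc4, Rfc5, Ccne2 and Chaf1a. The library kit marks strand, per the labels' protocols, and the sources used here do not say whether the counting used strand, so the values of these 7 are uncertain.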

How the data were processed

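Bulk RNA was sequenced from 27 mouse colon libraries in 5 groups. The authors deposited 1 table with a whole-number count and an FPKM value per gene and library. Tools named in the submitters' processing notes are HISAT2, FastQC and cutadapt 1.9. What each was used for, how reads were counted, and with which annotation and build, the sources used here do not say. Groups came from the sample titles. Genes that reached an FPKM of 1 in 5 or more libraries were tested on the deposited counts with edgeR 4.0.16 in R 4.3.3 (TMM scaling, quasi-likelihood test, all groups in 1 fit), with Benjamini-Hochberg adjustment and a threshold of 0.05. SE is the log2 fold change divided by the root of F. The deposited FPKM values were used for the filter, for levels per length and in limma 3.58.1 alternatives. DESeq2 1.42.0 and voom were alternatives. Simulated data for CAC_F against CAC held 15080 genes, of which 100 were changed by 1 and 100 by 2 on the log2 scale. Of these 66% and 89% were recovered, with 3.73% of calls false. In the data themselves edgeR called 19.0% of genes higher and 20.2% lower, so these shares need not carry over.

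Members, lists, tests and comparisons were chosen with earlier results of these data known, so the lists are no independent evidence of direction. Values in every library are given for the 2 members of each role with the smallest adjusted p in CAC_F against CAC and the 5 with the largest p. Where no member was called, the 3 smallest p are named. From other lists up to 4 called genes with the smallest adjusted p are named, beside Mki67, Cdkn1a, Rrm2 and Tyms. Of the genes that these rules select, 1 is not reported here. Other genes and the promoters of Mcm6, Orc1, Mcm5 and Cdc6 were chosen after values were seen. Promoters are from RefSeq on GRCm38.p6. The labels do not say that each library is a separate mouse, so p-values measure the spread between libraries.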

Additional observations from a re-analysis of the deposited data

Results flagged for a closer look

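The values of the named members and the summed level of all 40 were examined in each group, 100 sets in all, for a library far from the others of its group by Dixon's gap over range, and 3 sets had one. Chance gives about 1 in 20 sets. Cdt1 was at 56.6 CPM in CAC_FP replicate 2 and at 33.9 to 40.3 CPM in the other 4 libraries of the group. Chaf1b was at 31.8 CPM in the same library and at 20.8 to 23.7 CPM in the others. Rfc2 was at 75.5 CPM in CAC replicate 1 and at 47.1 to 51.6 CPM in the other CAC libraries. The cause was not tested.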

How the results depend on the processing

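For the named members in CAC_F against CAC and for Prim2 in CAC_FPL against CAC_F, but not for single members in CAC_FP against CAC, 423 of 432 values under the alternatives kept their direction and side of the threshold, 7 were no longer called, 2 became called and 0 reversed. The named members were chosen for the smallest or largest p in CAC_F against CAC, so a high count was likely in advance. Among members not chosen so, Cdc45 was called in 13 of 21 alternatives, Pola1 in 17 of 21 and Rfc3 in 19 of 22. Mcm2, Mcm3, Mcm5 and Mcm7 were called in 22 of 22. With a filter of mean FPKM of at least 5, which tests fewer members, the count higher was 19 in CAC_F against CAC, 15 in CAC_FP against CAC, 1 in CAC_FPL against CAC and 22 in CAC_F against NC, and the count lower in CAC_FPL against CAC_F was 0. With the smooth muscle covariate the counts higher were 19 in CAC_F and 3 in CAC_FP against CAC. In CAC_FPL against CAC the count higher was 1 with median-ratio size factors or the epithelial covariate, 9 with DESeq2, 5 with voom and 23 without CAC replicate 2 and CAC_FPL replicate 3. The count lower in CAC_FPL against CAC_F was 6 with DESeq2, 18 with voom, 3 with limma on log2(FPKM + 1) or log2(FPKM + 0.1), and 0 in a fit of only the groups compared. Leaving out 1 library gave 30 to 34 higher in CAC_F against CAC, 14 to 32 in CAC_FP against CAC, 0 to 16 in CAC_FPL against CAC and 35 to 37 in CAC_F against NC, and 0 to 11 lower in CAC_FPL against CAC_F. The cause was not tested. All these are counts of members. Counts of all genes under the same settings are not given beside them, so no shift is read as particular to the members.

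Same-numbered libraries did not pair: correlations of their deviations ran from -0.49 to 0.36, and in no comparison were all above 0.1. With a replicate block the count lower in CAC_FPL against CAC_F was 5, and the counts higher were 33 in CAC_F and 27 in CAC_FP against CAC and 37 in CAC_F against NC. At 56687812 counts or more per library, the members with the fewest counts, such as Gins1 at 1.84 CPM in CAC_FPL replicate 3, are the least precise.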
